A study of Mus musculus with 3 samples.

Results

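The genes described here are 10 genes of scavenging and of apoptotic-cell and myelin-debris uptake, out of 22238 genes listed in every library. They were taken as a list by name (Mertk, Axl, Gas6, Cd36, Msr1, Marco, Stab1, Mrc1, Cd68 and Lrp1), and all 10 were found. The list was chosen with earlier results of these data known. The list is mixed in kind, since Gas6 encodes a secreted ligand and Cd68 a glycoprotein found mostly in late endosomes and lysosomes, while the other 8 encode cell surface receptors. The values came from RNA-Seq of 3 myeloid populations in experimental autoimmune encephalomyelitis (EAE), the mouse model of multiple sclerosis. The mice were wild-type C57BL/6J females aged 10 to 12 weeks. They had been immunized with a MOG peptide in complete Freund's adjuvant, had received 250 ng of pertussis toxin in each of a pair of doses, and were killed on day 14 or 15, at the peak of disease. All 3 populations came from immunized mice, so no steady-state monocyte was measured. Bone marrow monocytes were sorted as CD45+ CD11b+ Ly6Chi cells without Ly6G or CD11c after enrichment with a monocyte isolation kit. Spinal cord monocytes were CD45+ CD11b+ CD64+ Ly6Chi Ly6G- cells, and the spinal cord antigen-presenting cells (APCs) differed in the gate only in being Ly6Clow/-. The CD64 gate was applied to the spinal cord only. Spinal cords were digested with collagenase D and DNase I and run on a Percoll gradient, while bone marrow was flushed from the bones. Tissue and handling thus changed together between BM and spinal cord cells, and their parts cannot be told apart. The 2 Ly6Chi populations are called BM and SC monocytes below. Each population was 1 library of pooled cells, from 13 mice of 2 experiments for the bone marrow and 18 mice of 3 experiments for each spinal cord population.

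Macrophages recognize dying cells and debris with several receptor systems. Apoptotic cells and myelin fragments expose phosphatidylserine, which Gas6 and protein S (encoded by Pros1) bridge to the receptor tyrosine kinases Tyro3, Axl and Mertk, known together as the TAM receptors. Scavenger receptors such as Msr1, Marco, Cd36 and Stab1 bind modified lipoproteins, polyanions and other altered ligands, Mrc1 takes up mannosylated glycoproteins, and Lrp1 takes up apolipoprotein E particles, protease complexes and calreticulin-tagged cells. In the demyelinating spinal cord, such uptake clears myelin and loads the cell with cholesterol that must be stored or exported.

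Levels are given as TPM, a measure of transcripts relative to gene length and library total, rescaled so that the 22238 common genes sum to 1000000 in each library, and reads are the estimated read counts behind them. Total reads over these genes were 26116588 to 32115707 per library. A gene was called higher or lower where the 98% interval of its fold change on size-factor scaled reads lay wholly beyond 2-fold and its level was above 3 TPM in at least 1 of the 2 libraries, in which case it is termed active. With 1 library per population there is no replicate check and no test, and the intervals cover counting error only. In sorted bulk samples, fewer cells of a type and less RNA per cell cannot be told apart. The APC library had been quantified on a shorter gene list, and the length over which its reads were counted differed from that of SC monocytes by more than 0.1 on the log2 scale for 50.7% of active genes. Fold changes were therefore also computed on reads divided by effective length.

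The sorted populations carried the labels' markers in part. Of 6 monocyte markers, Ly6c2 had 5205, 3602 and 1067 TPM in BM monocytes, SC monocytes and APCs. The summed level of the list was 10750, 8364 and 2142 TPM. Between the monocyte populations its genes were mixed, with 1 called higher and 2 lower (13.8% and 10.7% of all active genes). The log2 fold change was above 0 for 3 of the 6, among them Plac8 (2564 to 3506 TPM) and Fcgr1 (81.3 to 274 TPM). From SC monocytes to APCs 4 of 6 were called lower and 0 higher (1.7% and 1.93% of all active genes). Ly6C and CD64, the proteins of Ly6c2 and Fcgr1, were themselves used in the sort. Ly6C separated SC monocytes from APCs, and CD64 was gated in the spinal cord only. The levels of these genes are thus no independent check of the populations. The summed level of 7 microglia markers was 12.9, 92.1 and 249 TPM in BM monocytes, SC monocytes and APCs. Sall1 and Slc2a5 had 0 reads in the bone marrow. All 6 microglia markers active between the monocyte populations were called higher in the spinal cord, against 13.8% of all active genes. Of these, only P2ry12 was above 3 TPM in BM monocytes, so the others were active only through SC monocytes. All 7 were called higher in APCs than in SC monocytes, against 1.93% of all active genes (6 of 7 per effective length, against 2.38%). The part of microglia in the results below was not tested.

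Promoter sequences are shown for the 4 genes of the list that rose most from bone marrow to spinal cord and for Mrc1, which rose in both steps. They are the 250 bases before the RefSeq start on the GRCm38.p6 build, written 5′ to 3′ on the strand of the gene, with each match to GAGGAA, a core bound by the myeloid factor PU.1, in capitals on either strand (TTCCTC on the other).
Mertk, chr2:128698665-128698914, plus strand: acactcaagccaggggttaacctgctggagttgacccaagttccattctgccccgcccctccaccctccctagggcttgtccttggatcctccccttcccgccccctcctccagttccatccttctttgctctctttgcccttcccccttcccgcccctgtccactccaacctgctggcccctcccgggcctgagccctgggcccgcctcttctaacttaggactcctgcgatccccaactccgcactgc
Axl, chr7:25788734-25788983, minus strand: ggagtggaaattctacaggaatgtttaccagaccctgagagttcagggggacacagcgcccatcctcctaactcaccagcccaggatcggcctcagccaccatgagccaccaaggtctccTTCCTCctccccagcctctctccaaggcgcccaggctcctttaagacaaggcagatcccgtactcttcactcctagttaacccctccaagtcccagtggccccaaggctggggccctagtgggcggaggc
Gas6, chr8:13494536-13494785, minus strand: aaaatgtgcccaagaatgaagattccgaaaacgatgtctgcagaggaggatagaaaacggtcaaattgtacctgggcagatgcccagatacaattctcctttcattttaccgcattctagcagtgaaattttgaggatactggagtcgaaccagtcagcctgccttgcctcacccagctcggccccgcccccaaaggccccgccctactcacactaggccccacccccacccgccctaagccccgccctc
Stab1, chr14:31168642-31168891, minus strand: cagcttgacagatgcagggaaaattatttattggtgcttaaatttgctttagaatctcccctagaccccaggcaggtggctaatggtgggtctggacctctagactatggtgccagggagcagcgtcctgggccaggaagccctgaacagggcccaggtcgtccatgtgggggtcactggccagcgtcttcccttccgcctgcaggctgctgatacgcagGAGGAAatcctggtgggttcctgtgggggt
Mrc1, chr2:14229164-14229413, plus strand: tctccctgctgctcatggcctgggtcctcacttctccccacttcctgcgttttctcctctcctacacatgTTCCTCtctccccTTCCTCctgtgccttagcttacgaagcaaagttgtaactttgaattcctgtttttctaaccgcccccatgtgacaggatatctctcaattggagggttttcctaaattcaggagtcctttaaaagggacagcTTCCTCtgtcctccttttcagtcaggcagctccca
GAGGAA was found in 5 of the 9 promoters that the RefSeq table held (Axl, Cd68, Marco, Mrc1 with 3 matches, and Stab1), and in 23.3% of all 32851 promoters of that length. The GC box GGGCGG, searched on both strands, was found in 7 of 9 (Mertk, Axl, Gas6, Cd36, Mrc1, Cd68 and Lrp1) against 32.7% of all. Cd68 alone of the 9 held the AP-1 motif TGANTCA (6.75% of all promoters) and the C/EBP motif TTGCNNAA (9.56% of all). No match was found among the 9 to the E-box CACGTG (6.02% of all), the core of the interferon-stimulated response element (2.98%), the LXR direct repeat (0.0152%) or TATAAA (12.4%). The Mertk, Gas6, Cd36 and Lrp1 windows held no GAGGAA. These matches are a description of the letters only, and Msr1 was not in the promoter table.

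Mertk, Axl, Gas6, Cd36, Msr1, Stab1 and Mrc1 were called higher in SC than in BM monocytes, and Cd68, Lrp1 and Marco were not called. In SC monocytes 7 of the 9 active genes were called higher than in BM monocytes and 0 were called lower, where 13.8% of the 10072 active genes of the series were called higher and 10.7% lower. The median log2 fold change was 3.08 over the 9 genes and -0.15 over all active genes. Mertk, Gas6, Cd36, Stab1 and Mrc1 were below 3 TPM in BM monocytes and counted as active only through SC monocytes. A call of lower was thus hardly possible for these genes, and the threshold favours a high median. The list was also chosen with earlier results of these data known, so the counts are a description only. From SC monocytes to APCs, 1 of 9 was called higher and 0 lower, against 1.93% and 1.7% of 9734 active genes, with medians of 0.81 and -0.04. Per effective length, 3 of 9 were called higher in APCs and 0 lower, against 2.38% and 3.29% of all active genes. Between the monocyte populations that scale gave the same 7 genes (14.0% of all active genes higher and 11.2% lower). APCs against BM monocytes again gave 7 of 9 higher and 0 lower (14.0% and 11.8% of 10190 active genes), and this comparison shares its libraries with the other two. Mertk, Gas6, Cd36, Stab1 and Mrc1 were active there only through APCs. Marco, the tenth gene, stayed below 3 TPM in every library.

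**Figure D1:**
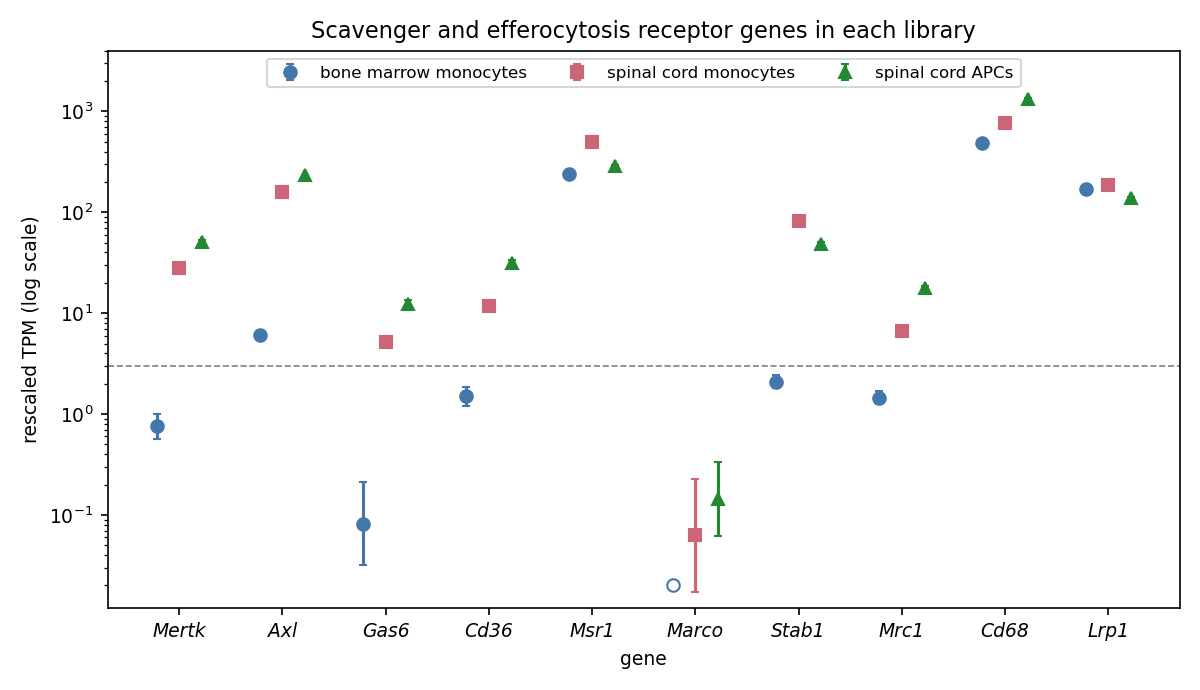
Level of each of the 10 genes in the 3 libraries (vertical axis: rescaled TPM on a log scale; bars: 95% Wilson interval of the share of reads; dashed line: 3 TPM; open circle: 0 reads, drawn at the bottom of the axis). Mertk, Axl, Gas6, Cd36, Stab1 and Mrc1 lie far lower in BM monocytes than in either spinal cord population, while Msr1, Cd68 and Lrp1 are above 100 TPM in all 3 libraries.

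The genes fell into a group already abundant in BM monocytes and a group near or below 3 TPM there. Cd68, Msr1, Lrp1 and Axl, with 489, 238, 171 and 6.08 TPM, were the 4 genes above 3 TPM in the bone marrow. Stab1, Cd36 and Mrc1 followed at 2.10, 1.49 and 1.45 TPM, where the 95% interval of Cd36 overlapped those of both Stab1 and Mrc1, and Gas6 and Marco also overlapped. In SC monocytes 9 genes were above 3 TPM and no neighbouring intervals overlapped, with the order Cd68, Msr1, Lrp1, Axl, Stab1, Mertk, Cd36, Mrc1, Gas6 and Marco. In APCs Axl stood above Lrp1, and Mertk and Stab1 had overlapping intervals. Cd68 made up 53.7%, 44.0% and 62.0% of the summed TPM of the 10 genes, which was 909, 1756 and 2165 TPM. Without Cd68 the sum was 421, 983 and 823 TPM, highest in SC monocytes.

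Among the TAM receptors, Axl and Mertk rose together in the spinal cord, with Axl the more abundant in each library. Mertk (ENSMUSG00000014361.5, GRCm38 chr2:128698956-128802894), the receptor through which macrophages engulf apoptotic cells under resting conditions, had 0.754 TPM (49 reads; 95% interval 0.570 to 0.996) in BM monocytes. It had 27.8 TPM (2160 reads; 26.6 to 29.0) in SC monocytes and 51.2 TPM (4329 reads; 49.7 to 52.8) in APCs. The 3 intervals were far apart, with the bone marrow library the low one. Its log2 fold change on reads was 5.92 (98% interval 5.47 to 6.43) between the monocyte populations, a 60.8-fold rise, and 43.0-fold per effective length. In APCs against SC monocytes it was 0.85 (0.76 to 0.93), below the 2-fold bound, and 0.97 per effective length.

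Axl (ENSMUSG00000002602.16, chr7:25757273-25788705), the TAM receptor that inflammation and interferon are known to induce, had 6.08 TPM (511 reads) in BM monocytes, 159.6 TPM (10567 reads) in SC monocytes and 233 TPM (17950 reads) in APCs. It ranked above 90.3% of active genes in SC monocytes, against 10.6% in BM monocytes. The log2 fold change was 4.85 (98% interval 4.701 to 5.005) for the first step, 28.8-fold on reads and 31.0-fold per effective length. For the second step it was 0.61 (0.57 to 0.65). Axl exceeded Mertk in TPM by 8.07-fold in BM monocytes, 5.74-fold in SC monocytes and 4.54-fold in APCs. Tyro3, the remaining TAM receptor, had 0, 5 and 7 reads, all under 3 TPM.

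The TAM ligands differed in direction between the monocyte populations. Gas6 (ENSMUSG00000031451.6, chr8:13465374-13494490), which binds all 3 TAM receptors, had 4 reads in BM monocytes, or 0.0818 TPM (95% interval 0.0318 to 0.210). It had 226 reads or 5.13 TPM in SC monocytes and 595 reads or 12.4 TPM (11.5 to 13.5) in APCs. It rose between the monocyte populations by 6.08 on the log2 scale, and the few reads of the bone marrow library gave the wide 98% interval of 4.75 to 7.96. The step to APCs gave 1.24 with a lower bound of 0.98, just short of the 2-fold bound, whereas per effective length it was 1.35 and called. Gas6 thus lay at the edge of the call.

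Pros1, for protein S, had 50.9 TPM (2999 reads) in BM monocytes, 17.0 TPM (997 reads) in SC monocytes and 23.7 TPM (1507 reads) in APCs. Its log2 fold change between the monocyte populations was -1.11 (98% interval -1.23 to -0.98), not called on reads, and -1.34 per effective length, where it was called lower. In the step to APCs it was 0.44 (0.30 to 0.58), not called, with the same sign as Gas6. Pros1 TPM was 622.5 times that of Gas6 in BM monocytes, 3.31 times in SC monocytes and 1.91 times in APCs. The summed TPM of both ligands was therefore 51.0, 22.1 and 36.1, while that of the 3 receptors was 6.84, 187 and 284.

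**Figure D2:**
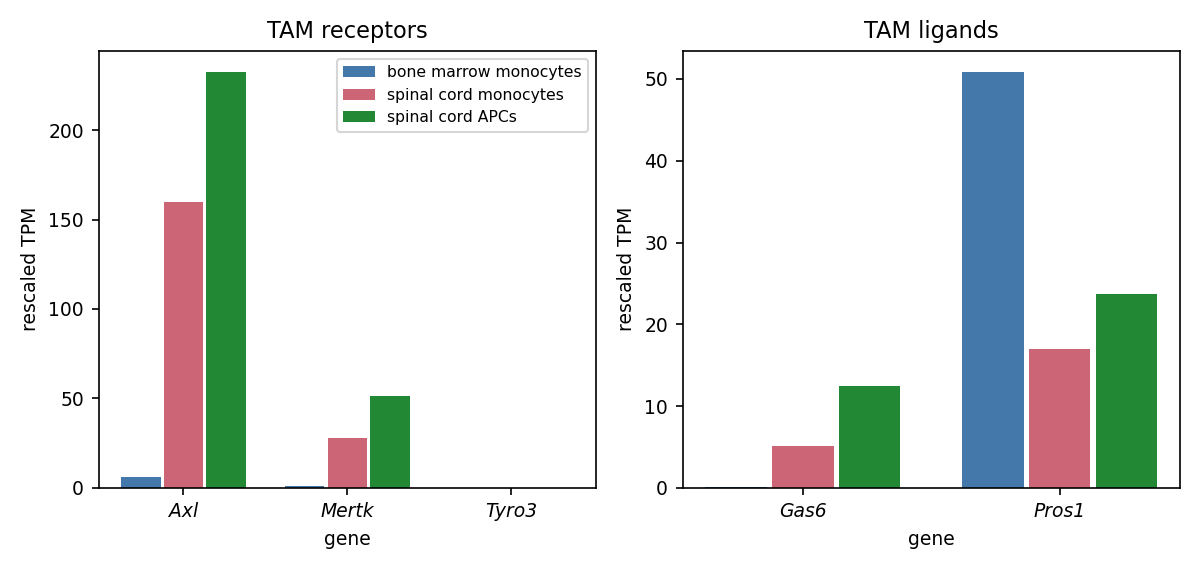
Rescaled TPM (vertical axes, linear, from 0) of the TAM receptors Axl, Mertk and Tyro3 and of the TAM ligands Gas6 and Pros1, 1 bar per library. Axl and Mertk are lowest in BM monocytes and highest in APCs, Tyro3 is too low to see, and Pros1 exceeds Gas6 in each library while being highest in the bone marrow.

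Of the class A scavenger receptors in the list, Msr1 was abundant and Marco nearly absent. Msr1 (ENSMUSG00000025044.16, chr8:39581685-39642673), the macrophage scavenger receptor for modified lipoproteins and polyanions, had 238 TPM (6916 reads) in BM monocytes, 502 TPM (12626 reads) in SC monocytes and 288 TPM (10790 reads) in APCs. It was highest in SC monocytes, with 95% intervals of 493 to 511 there and 283 to 294 in APCs. It rose from bone marrow to SC monocytes by 1.35 on the log2 scale (98% interval 1.30 to 1.40, 2.55-fold), a call lost with an assumed coefficient of variation of 0.2. In APCs its log2 fold change from SC monocytes was -0.38 on reads (-0.43 to -0.34) and -0.72 per effective length, and neither was called. Against BM monocytes its log2 fold change in APCs was 0.97 on reads, just short of the bound, but 0.60 per effective length. The values on the 2 scales differ because its reads were counted over unlike effective lengths. These were 1363 bases in BM monocytes, 1298 bases in SC monocytes and 1795 bases in APCs. Marco (ENSMUSG00000026390.7, chr1:120474538-120505024), a receptor of tissue macrophages such as those of the splenic marginal zone and lung, had 0, 2 and 5 reads. Its 0 reads in BM monocytes allow a level of up to 0.154 TPM (3 reads), and these few reads support no call. Between BM and SC monocytes and between SC monocytes and APCs the 98% interval of its fold change spanned 0 on the log2 scale, while for APCs against BM monocytes it ran from 0.12 to 9.55.

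Cd36 (ENSMUSG00000002944.15, chr5:17781690-17888801), the class B receptor for oxidized lipids and long-chain fatty acids, stepped up from population to population. It had 1.49 TPM (75 reads; 95% interval 1.19 to 1.87) in BM monocytes, 11.7 TPM (459 reads; 10.6 to 12.8) in SC monocytes and 31.5 TPM (1058 reads; 29.6 to 33.4) in APCs. It rose in the first step by 3.08 on the log2 scale (98% interval 2.68 to 3.52, 8.48-fold), and 9.16-fold per effective length. In the second step its log2 fold change was 1.05 on reads (0.86 to 1.24), not called, and 1.51 per effective length, called. Its effective length was 2031 bases in SC monocytes and 1613 bases in APCs.

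Stab1 and Mrc1, both used as markers of alternatively activated and perivascular macrophages, changed in different ways. Stab1 (ENSMUSG00000042286.13, chr14:31139013-31168641), which encodes the multi-ligand endocytic receptor stabilin-1, had 2.10 TPM (158 reads; 95% interval 1.79 to 2.45) in BM monocytes and 82.1 TPM (7228 reads; 80.3 to 84.1) in SC monocytes. In APCs it had 49.1 TPM (6369 reads; 47.9 to 50.3), between the other two. It rose 63.6-fold between the monocyte populations (log2 fold change 5.99, 98% interval 5.73 to 6.27), and 46.2-fold per effective length. Its log2 fold change from SC monocytes to APCs was -0.34 on reads and -0.66 per effective length, neither called.

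Mrc1 (ENSMUSG00000026712.3, chr2:14229392-14332057), the mannose receptor CD206, was the gene of the list called higher in both steps. It had 1.45 TPM (159 reads; 1.25 to 1.70) in BM monocytes, 6.59 TPM (649 reads; 6.11 to 7.12) in SC monocytes and 17.9 TPM (1915 reads; 17.1 to 18.7) in APCs. The log2 fold changes were 2.51 (98% interval 2.22 to 2.81, 5.68-fold) and 1.40 (1.25 to 1.56, 2.65-fold), and per effective length 2.42 and 1.52. The second call was lost once libraries were assumed to vary with a coefficient of variation of 0.2. Stab1 exceeded Mrc1 in TPM by 1.44-fold in BM monocytes, 12.5-fold in SC monocytes and 2.74-fold in APCs. Beside these genes, the summed level of 6 markers of border-associated macrophages of the central nervous system, which carry both receptors, was 14.4, 30.7 and 33.4 TPM. Of these, Lyve1 had 0, 2 and 0 reads, Folr2 had 1, 2 and 3 reads and Cd163 had 20, 7 and 11 reads, Cbr2 had 67, 17 and 11 reads and Pf4 had 56, 42 and 102 reads. Pf4 had 6.83 TPM in SC monocytes and 14.1 TPM in APCs (log2 fold change 1.11, 98% interval 0.51 to 1.74, not called). Siglec1 had 2.51 TPM in BM monocytes, 22.1 TPM in SC monocytes and 18.3 TPM in APCs. It was the 1 of 3 active border markers called higher in SC than in BM monocytes, and 0 were called lower (13.8% and 10.7% of all active genes). The part of border-associated macrophages in the levels of Stab1 and Mrc1 was not tested.

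Cd68 and Lrp1 were abundant in each population and moved least between the monocyte populations. Cd68 (ENSMUSG00000018774.13, chr11:69664213-69666153) had 489 TPM (10036 reads), 773 TPM (14003 reads) and 1343 TPM (27411 reads), each level outside the others' 95% interval. The log2 fold changes were 0.96 (98% interval 0.92 to 1.01) and 0.81 (0.78 to 0.85), each under the bound. Added over both steps, from BM monocytes to APCs, it rose by 1.77 on the log2 scale (1.74 to 1.81, 3.42-fold) and was called, which was lost with an assumed coefficient of variation of 0.2 or 0.4. Msr1 TPM was 0.486 of that of Cd68 in BM monocytes, 0.650 in SC monocytes and 0.215 in APCs.

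Lrp1 (ENSMUSG00000040249.15, chr10:127538161-127621148) had 171 TPM (34092 reads), 188 TPM (27426 reads) and 139 TPM (34923 reads). Its log2 fold change was 0.17 (98% interval 0.14 to 0.20) between the monocyte populations, and -0.079 when all genes of both monocyte libraries set the scale. From SC monocytes to APCs it was 0.19 on reads and -0.35 per effective length, with effective lengths of 7521 and 12040 bases. The direction of Lrp1 therefore turned with the processing in both steps, and no change was established. Lrpap1, the chaperone that escorts Lrp1 and its relatives to the surface, rose by 1.14 on the log2 scale between the monocyte populations, from 94.6 to 198.8 TPM.

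**Figure D3:**
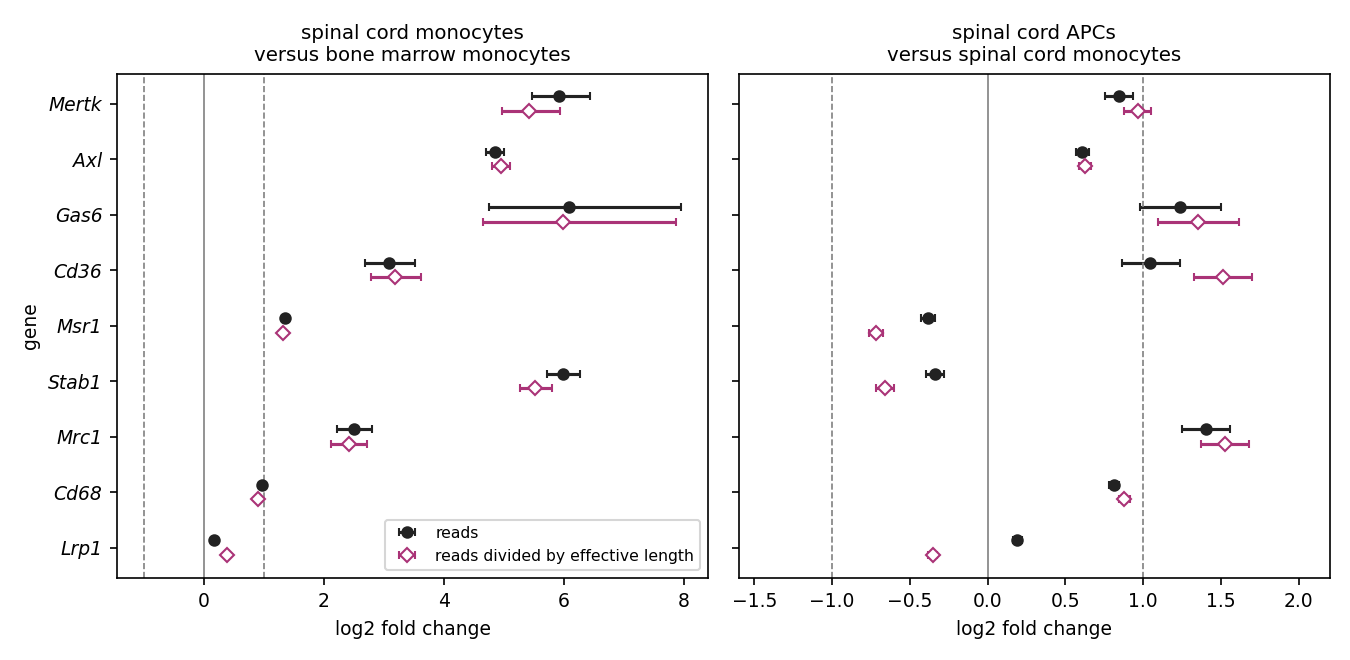
Log2 fold change (horizontal axes) of the 9 active genes between the monocyte populations (left) and from SC monocytes to APCs (right), on reads (filled circles) and on reads divided by effective length (open diamonds), with 98% intervals of counting error. Dashed lines mark a 2-fold change. In the left panel 7 genes lie wholly beyond it, and in the right panel Mrc1 does on both scales, Gas6 and Cd36 per effective length only, and Lrp1 changes sign.

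Genes that act beside these receptors were described from 6 lists, whose counts between the monocyte populations stand against 13.8% of all active genes called higher and 10.7% lower. Of 16 other genes of phosphatidylserine recognition and bridging, 12 were active between the monocyte populations, with 7 called higher and 1 lower and a median log2 fold change of 2.16. C1qa, C1qb and C1qc, the chains of complement C1q, which coats apoptotic cells and myelin, rose from a summed 3.20 TPM in BM monocytes to 2122 TPM in SC monocytes, with log2 fold changes of 9.94, 9.46 and 9.61. Their sum was 4728 TPM in APCs, where C1qa (1.49) and C1qc (1.09) were called higher again and C1qb was at 0.89. Havcr2, which encodes the phosphatidylserine receptor TIM-3, rose by 4.26 from 4.28 to 65.3 TPM. The integrin chains went apart, since Itgb5 rose by 2.55 to 147.8 TPM and Itgb3 fell by 3.20 on the log2 scale, from 11.6 to 0.989 TPM. Calr, which encodes calreticulin, was the most abundant gene of the list in both monocyte libraries, with 761 and 971 TPM and a log2 fold change of 0.58 that was not called.

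Of 16 other scavenger receptors, 6 were active between the monocyte populations, 4 called higher and 1 lower, with a median of 2.08. Cxcl16, a membrane chemokine that also binds oxidized lipoprotein, rose by 8.48 from 1.02 to 314 TPM. Olr1, the oxidized lipoprotein receptor LOX-1, rose by 3.90 on reads (314 to 3353 reads). Its TPM, 4.44 and 140.8, lay further apart than its reads. Scarf1 rose by 2.92 from 2.60 to 15.7 TPM. Scarb1, the receptor for high-density lipoprotein, fell by 1.505 on the log2 scale, from 148 to 41.2 TPM. Stab2, the closest relative of Stab1, had 0 reads in each library. None of the 6 active genes was called between SC monocytes and APCs (1.93% of all active genes higher and 1.7% lower), where the median was -0.27.

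Genes of the engulfment machinery, which act behind the receptors, gave few calls. Of 20 genes, 17 were active between the monocyte populations, with 0 called higher and 1 lower, against 13.8% and 10.7% of all active genes, and a median log2 fold change of -0.27. Elmo2, which with Dock1 activates Rac at the phagocytic cup, was called lower, at 112 TPM in the bone marrow and 28.7 TPM in SC monocytes (-1.62), and Rubcn joined it per effective length (-1.22). Cdc42, the most abundant of the list in both monocyte libraries, had 882, 564 and 509 TPM in the 3 populations. In the step to APCs 0 of 17 were called in either direction (1.93% of all active genes higher and 1.7% lower), with a median of -0.03. APCs against BM monocytes gave 0 of 17 higher and 2 lower, near the 11.8% of all active genes called lower (14.0% higher). Per effective length 5 were lower, where 1292 of 10190 active genes were.

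Genes of lipid efflux and storage were called higher in part in the first step. Of 16 active genes, 8 were called higher, 7 were not called and 1 was lower, with a median of 1.04 (7 higher and 1 lower per effective length, where Abcg1 at 0.92 was no longer called). Abca1, the cholesterol exporter, rose by 4.87 from 1.98 to 48.8 TPM, Nr1h3, which encodes the sterol sensor LXRα, by 4.74 from 0.503 to 11.5 TPM, and Pparg by 2.92 from 0.951 to 6.16 TPM. Apoe, which carries cholesterol out of macrophages and is a ligand of Lrp1, rose by 2.67 from 1538 to 8392 TPM and had 10457 TPM in APCs. Lpl, lipoprotein lipase, fell by 1.19 on the log2 scale, from 65.5 to 23.2 TPM. Between SC monocytes and APCs 0 of 17 active genes were called on reads (1.93% of all active genes higher and 1.7% lower), with a median of 0.09. Per effective length Fabp5, a fatty acid binding protein, was called higher (1.08), against 2.38% of all active genes.

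Of 8 genes for find-me and do-not-eat-me signals, 4 were called higher between the monocyte populations and 0 lower (13.8% and 10.7% of all active genes), with a median of 0.86. These were S1pr1 (5.69), Gpr132 (2.95), P2ry2 (2.45) and P2ry6 (1.71), receptors for lipids and nucleotides that dying cells release. Sirpa, the receptor for the do-not-eat-me signal CD47, was the most abundant, at 438, 368 and 430 TPM. Cx3cr1, the fractalkine receptor, was called higher in APCs than in SC monocytes (log2 fold change 1.28) and had 88.5, 40.4 and 108 TPM in the 3 populations. Of 3 genes of receptor shedding and folding, Lrpap1 was called between the monocyte populations, and Adam10 (-0.01) and Adam17 (0.74), proteases known to shed TAM receptors, were not.

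**Figure D4:**
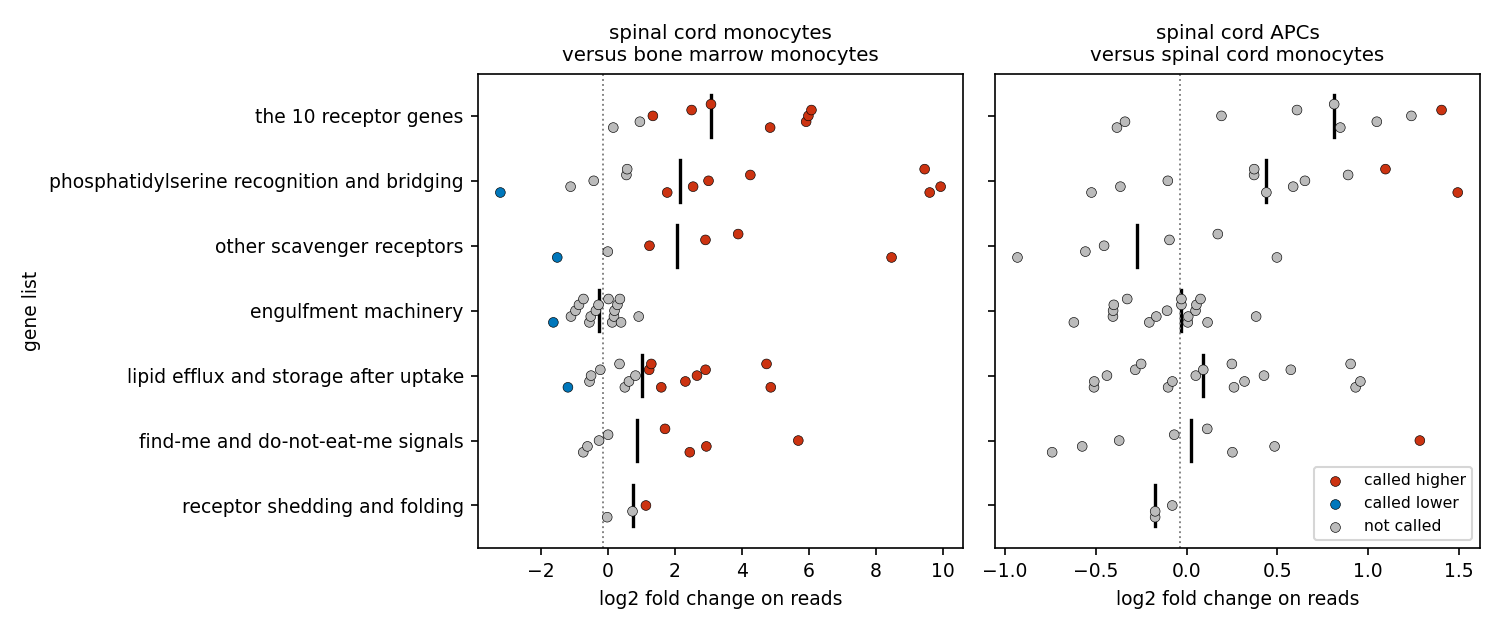
Log2 fold change on reads (horizontal axes) of the active genes of each list, 1 point per gene, between the monocyte populations (left) and from SC monocytes to APCs (right). Thick bars mark the list medians and the dotted line the median of all active genes. On the left the 10-gene list has the highest median (3.08) and the engulfment machinery lies near the dotted line, and on the right few points are coloured as called. All lists were chosen with earlier results of these data known.

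The genes whose 2 log2 fold changes lay nearest to those of each receptor were sought among 8202 genes above 10 TPM in at least 1 of the 3 libraries, as a description of 3 libraries. Nearest to Axl was Abca1, the cholesterol exporter above (4.87 and 0.57, at a distance of 0.0391), followed by Tnfsf9, which encodes the ligand 4-1BBL (4.89 and 0.45). Nearest to Mertk were Carmil1 (5.79 and 0.76) and B3gnt7 (5.74 and 0.97), and nearest to Gas6 were Gdpd1 (6.16 and 1.098) and Grasp (5.96 and 1.42). Stab1 lay nearest to Tnfaip3, the inhibitor of NF-κB signalling also known as A20 (5.86 and -0.44), and to the heat shock gene Hspa1a (5.82 and -0.33). Cd36 lay nearest to Nectin2 (3.14 and 0.84) and Sox4 (3.33 and 1.06), and Mrc1 to Adgrg1 (2.60 and 1.54) and Olfr1033 (2.27 and 1.42). Msr1 lay nearest to the glycolytic gene Pgk1 (1.34 and -0.37, at a distance of 0.0165) and to Csf2rb (1.33 and -0.40), a subunit of the GM-CSF receptor, whose TPM went from 584 in SC monocytes to 744.6 in APCs, the opposite direction to its reads. Cd68 lay nearest to Atn1 (0.92 and 0.78) and Tmem206 (0.88 and 0.81).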

How the data were processed

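RNA of 3 sorted populations was sequenced as poly(A)-selected libraries (KAPA mRNA HyperPrep, 300 ng of RNA, 11 PCR cycles, 50-base paired-end reads). Per the submitters' processing notes and the study's methods, the authors quantified transcripts with Salmon 0.14.1 against a mouse GENCODE annotation on mm10 and pooled them by gene, depositing estimated counts, TPM, length and effective length. The deposited estimated counts need not be whole and were rounded to whole reads. The deposited TPM, which the authors normalized over all genes listed in a library, were rescaled over the 22238 genes listed in all 3. Those genes held 84.9%, 85.3% and 100.0% of the deposited TPM of BM monocytes, SC monocytes and APCs, since the APC file listed 22242 genes and the monocyte files 54432.

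Fold changes followed the generalized fold change definition of the study. With 1 read added, each library's reads had a gamma posterior, scaled by median-of-ratios size factors (1.205, 0.863 and 0.962), and percentiles 1 and 99 bounded the fold change. Levels carry 95% Wilson intervals, and a count of 0 allows up to 3 reads. Intervals cover counting error only, because each population was 1 library. Reads carried no molecular identifiers, so copies made by PCR could not be told apart. Nothing in the sources used here says whether counting used strand, so antisense transcripts cannot be told apart. The calculation was tested on simulated data. Gene positions are from GENCODE M21 (GRCm38), whose gene identifiers matched 99.0% of the common genes exactly, and promoters from RefSeq (GRCm38.p6).

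Members and lists were chosen with earlier results of these data known. Named were all members; of each other list the called genes (at most 4 per direction and comparison) and the most abundant gene; and for each called member the 2 nearest genes. Genes named beyond that rule (Pros1 and Tyro3, the remaining TAM genes; Stab2, Adam10, Adam17, Rubcn, Abcg1, Fabp5, Itgb5, Lyve1, Folr2, Cbr2, Pf4 and Cd163) were added after their values were seen. Results on some genes of the lists are not reported here. 1 label of the APC library names bone marrow as its source, while its title and tissue name the spinal cord, which was used. Alternatives were another TPM threshold, other scaling, reads per effective length, an assumed spread between libraries, another posterior bound and prior, a plain 2-fold rule, TPM ratios and other gene sets. Scripts used edgeR 4.0.16 for the TMM factors, and otherwise scipy 1.17.1, pandas 2.3.3 and numpy 2.4.6 under Python 3.11.15.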

Additional observations from a re-analysis of the deposited data

How the results depend on the processing

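No paired analysis was possible because each population is 1 library, and no library could be left out. Between the monocyte populations the count of members called higher was 7 under the main setting and 5 to 7 under the alternatives. From SC monocytes to APCs it was 1, and became 2 with total reads (Gas6 at 1.28 joining Mrc1), 3 per effective length and 3 with the plain 2-fold rule (Gas6 and Cd36 joining in both), and 0 with an assumed coefficient of variation of 0.2 or 0.4. The median of that step was 0.81, and 0.86 with total reads and 0.88 per effective length. Lrp1 turned to -0.079 between the monocyte populations with all genes of both monocyte libraries, and to -0.35 from SC monocytes to APCs per effective length. With a coefficient of variation of 0.2, Msr1 between the monocyte populations, Mrc1 from SC monocytes to APCs and Cd68 from BM monocytes to APCs lost their calls, and with 0.4 Mrc1 between the monocyte populations did too. Total reads shifted the median of all active genes by -0.18 between the monocyte populations (1239 genes higher and 1394 lower, against 1386 and 1073). Per effective length, 232 genes were called higher and 320 lower in APCs against SC monocytes, where reads gave 188 and 165. With a coefficient of variation of 0.2 the counts were 913 and 447 between the monocyte populations and 83 and 35 for APCs, with 0.4 they were 623 and 220, and 42 and 14, and without a TPM threshold 2623 and 1178, and 385 and 292. With a plain 2-fold rule APCs had 326 higher and 302 lower. Log2 ratios of TPM with a pseudocount of 1 or 0.1 moved 23 and 19 of 30 member values outside their counting interval, none of them to the other sign where called. What decides between reads and reads per effective length was not tested.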

Other observations

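Myelin transcripts were detected in both spinal cord populations, beside the uptake receptors. Mobp had 1 read in BM monocytes, 292 in SC monocytes and 345 in APCs. Mag had 13, 160 and 242 reads, and both genes were called higher in spinal cord than in BM monocytes. Of 5 oligodendrocyte and myelin markers active there, 3 were called higher and 1 lower (13.8% and 10.7% of all active genes). Mbp, which blood-forming cells also transcribe from a shared locus, ran the other way at 72.7, 35.7 and 33.8 TPM. The summed level of the 6 oligodendrocyte and myelin markers was thus 103, 77.3 and 74.8 TPM. Between APCs and SC monocytes 0 of its 5 active genes were called (1.93% of all active genes higher and 1.7% lower). The source of these reads was not tested.

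The other marker lists give the makeup of the sorts as summed TPM in BM monocytes, SC monocytes and APCs. T cell markers had 0.507, 36.1 and 51.8 TPM over 6 genes, and Cd3g and Cd4 had 0 reads in the bone marrow. Neutrophil markers had 291, 67.9 and 274 TPM over 6 genes, led by Ngp in each library. Of 5 active ones, 3 were called lower in SC than in BM monocytes and 2 higher (10.7% and 13.8% of all active genes). Retnlg had 1.77, 16.7 and 57.9 TPM. In APCs against SC monocytes 3 of 5 active neutrophil markers were called higher and 0 lower (1.93% and 1.7% of all active genes), with a median log2 fold change of 1.82. The part of neutrophils in these levels was not tested. Conventional dendritic cell markers had 40.8, 21.3 and 28.3 TPM. Flt3 fell from 37.8 to 3.65 TPM between the monocyte populations, where Batf3 and Clec9a were called higher. These were 2 higher and 1 lower of 3 active markers, against 13.8% and 10.7% of all active genes. In APCs Zbtb46 (3.37 TPM) and Itgae (3.24 TPM), both just above 3 TPM, were called higher than in SC monocytes. These were 2 of 5 active markers, with 0 lower, against 1.93% and 1.7% of all active genes. The other 3 active ones were not called, and Batf3 went from 11.7 to 6.34 TPM. B cell markers had 8.69, 3.52 and 3.79 TPM, astrocyte markers 3.01, 14.0 and 18.1 TPM, endothelial markers 17.1, 73.2 and 44.5 TPM and fibroblast markers 0.0365, 4.74 and 2.92 TPM.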
